A study of Mus musculus with 2 samples.

Results

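The features described here are 8 of the 739 on a microRNA array hybridised with RNA of mouse pulmonary arterial smooth muscle cells, which form the muscular layer of the vessel wall and set its tone by contracting. They were chosen by accession and by brightness. All 8 are among the 13 brightest features by mean log2 intensity over both arrays, and the selection describes them as registered in a series of miRBase entries that includes miR-690, miR-720, miR-1937 and miR-2132 to miR-2146. That description, and the statement in it that many such entries were later withdrawn as pieces of ribosomal or transfer RNA, could not be checked against the sources used here. The deposited table lists features by accession alone, so no feature is given a name.

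The study compared 1 sample of NOX1-deficient cells with 1 sample of wild-type cells, each labelled as coming from 3 male mice on the C57BL/6 background. NOX1 is a catalytic subunit of the NADPH oxidases, enzymes that make superoxide. What limits the NOX1-deficient cells as a model, such as the kind of allele, is not given in the labels, nor is whether the cells or the RNA of the 3 mice were pooled. Both samples were cells at passage 3, with 150000 of them put in each well of 12-well plates, and were harvested after 24 hours in DMEM/F-12 that held 10% serum (FBS). With 1 array per genotype, no difference below has a replicate check and none was tested. Loss of NOX1 and the identity of the cells were not checked, because the first is no feature of the array and the markers of smooth muscle are listed without names.

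A microRNA is cut from a hairpin precursor and guides a silencing complex to messenger RNAs, mainly through its seed, bases 2 to 8 from the 5′ end. Ribosomal and transfer RNAs make up most of a cell's total RNA and break into short pieces. Such a piece can be entered in a registry as a microRNA when a short-RNA sequence is matched to the genome, and the entry can be withdrawn when its source is recognised. A probe made for such an entry reports the intensity of labelled RNA that binds it and does not tell a processed microRNA from a fragment of the longer RNA.

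The selection gives 18 names, and RefSeq's table for GRCm38.p6 held a mature sequence for 4 of them. They are shown with the seed in capitals. The other names had no mature sequence in that table, so these 4 do not show what kind of sequence the rest of the series holds. Which accession on the array belongs to which of the 4 was not settled with the sources used here.
miR-690: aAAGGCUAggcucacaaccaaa
miR-2136: cUGGGUGUugacugagaugug
miR-2137: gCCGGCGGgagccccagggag
miR-2139: aGCUGCGCugcuccugguaacugc
These lie at chr16:28599940-28599961 on the minus strand, chr9:104426163-104426183 on the plus strand, chrX:72992113-72992133 on the plus strand and chr4:139967531-139967554 on the minus strand. The annotated spans of Fgf12, Zfp185 and Klhdc7a cover miR-690, miR-2137 and miR-2139, while no other annotated gene spans miR-2136. Whether these are exons or introns was not determined. Their seeds all differ, and each seed occurs in 1 of the 1738 mature entries of the table. Guanine and cytosine made up 85.7% of miR-2137, more than in 99.5% of the mature entries. The shares were 62.5% in miR-2139, 52.4% in miR-2136 and 45.5% in miR-690, against a median of 52.2% over the table. The 4 sequences thus share no seed, and their base composition differs widely.

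By accession number, 4 of the 8 features lie from 11000 to below 12000, 2 from 9000 to below 10000 and 2 from 3000 to below 4000. Intensities are in arbitrary linear units as deposited. MIMAT0011218, the brightest feature on both arrays, read 51059 units in NOX1-deficient cells and 51870 units in wild-type cells. MIMAT0011221, ranked 2 by mean log2 intensity, read 13525 units in NOX1-deficient cells and 15011 units in wild-type cells. The scanner's upper limit is not given, so whether the brightest spots were saturated is unknown.

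MIMAT0009414 read 6059 units in NOX1-deficient cells and 6159 units in wild-type cells, and MIMAT0009401 read 5849 and 6194 units in the same order. MIMAT0003469 read 2660 units in NOX1-deficient cells and 3003 units in wild-type cells. All 5 features named so far, which fill ranks 1 to 5, were lower in NOX1-deficient cells as deposited. MIMAT0003484, ranked 7, went the other way, with 1878 units in NOX1-deficient cells and 1784 units in wild-type cells. MIMAT0011216, ranked 9, read 1516 units in NOX1-deficient cells and 1671 units in wild-type cells. MIMAT0011222, ranked 13, read 834 units in NOX1-deficient cells and 1007 units in wild-type cells. The last of these is the dimmest of the 8 and had the lowest ratio of the arrays.

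**Figure D1:**
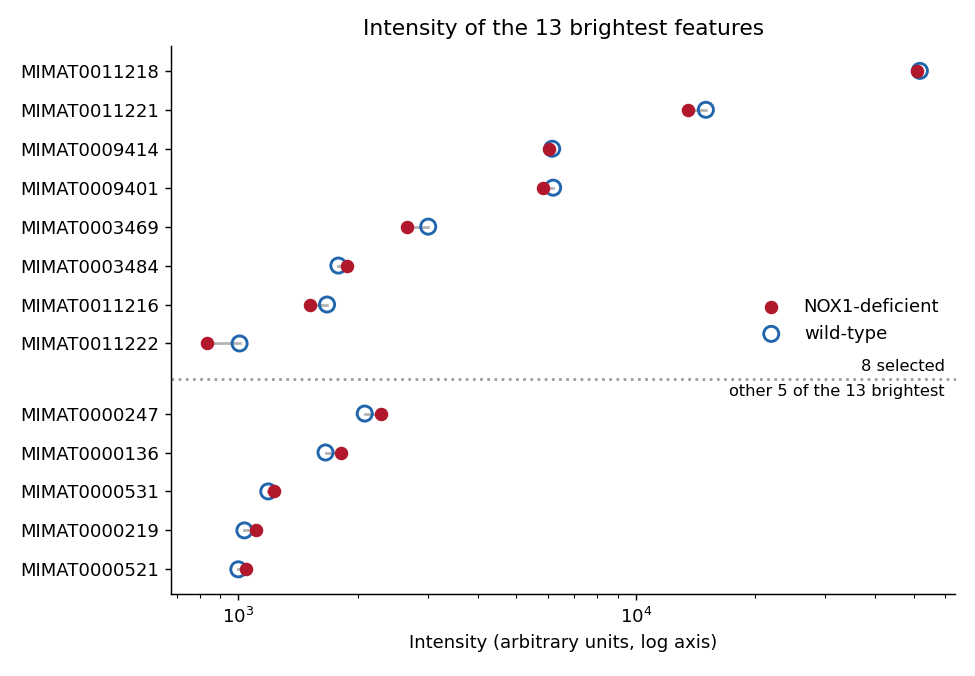
Intensity in arbitrary units on a log axis for the 8 selected features (above the dotted line) and the other 5 of the 13 brightest (below it), with 1 filled point for the NOX1-deficient array and 1 open circle for the wild-type array. The filled point lies to the left for 7 of the 8 and to the right for MIMAT0003484 and for all 5 others.

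Ranks 14 to 16, just outside the 13 brightest, were held by MIMAT0000523, MIMAT0000157 and MIMAT0011210. They read 954, 893 and 784 units in NOX1-deficient cells and 860, 910 and 964 units in wild-type cells. MIMAT0011210 thus falls 3 ranks below MIMAT0011222, although both are numbered from 11000 to below 12000. The boundary of the selection therefore passes between features of close intensity.

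The 8 features held 74.4% of the summed intensity of the NOX1-deficient array and 75.6% of that of the wild-type array. These shares follow from choosing bright features and do not measure abundance, since probes differ in affinity and labelling. Summed intensity over all features was 112103 units in NOX1-deficient cells and 114672 units in wild-type cells, of which the 8 gave 83380 and 86699 units. MIMAT0011218 alone held 45.5% of the sum in NOX1-deficient cells and 45.2% in wild-type cells. MIMAT0011221 held 12.1% in NOX1-deficient cells and 13.1% in wild-type cells. MIMAT0009414 and MIMAT0009401 held 5.40% and 5.22% in NOX1-deficient cells, and 5.37% and 5.40% in wild-type cells. The shares of the other 4 ran from 0.744% to 2.37% in NOX1-deficient cells and from 0.878% to 2.62% in wild-type cells. The ranking inside the group is therefore steep, and the 3 dimmest together held 3.77% in NOX1-deficient cells and 3.89% in wild-type cells.

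With MIMAT0011218 taken out of both the group and the sum, the other 7 held 52.9% in NOX1-deficient cells and 55.5% in wild-type cells. Removing any other 1 of the 8 left 70.9% to 74.2% in NOX1-deficient cells and 71.9% to 75.4% in wild-type cells. The share of the group was lower on the NOX1-deficient array under each of these removals.

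**Figure D2:**
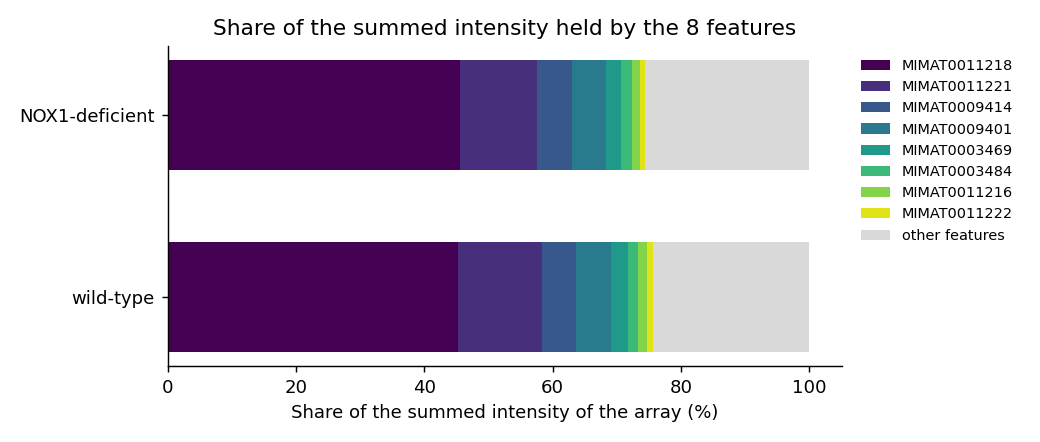
Share of the summed intensity of each array, in percent, held by each of the 8 features and by all others (grey), with the NOX1-deficient array above the wild-type array. The 8 coloured parts add up to 74.4% and 75.6%.

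The difference between the arrays asks whether these features differ between cells without and with NOX1. It is given as log2 of NOX1-deficient over wild-type intensity, as deposited and with no pseudocount. The differences were -0.02 for MIMAT0011218, -0.15 for MIMAT0011221, -0.02 for MIMAT0009414 and -0.08 for MIMAT0009401. They were -0.18 for MIMAT0003469, 0.07 for MIMAT0003484, -0.14 for MIMAT0011216 and -0.27 for MIMAT0011222. The widest of them, in MIMAT0011222, is a ratio of 0.828, or 1.21-fold lower in NOX1-deficient cells.

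None of the 8 differed by 1.5-fold, the size used here to count a feature, in either direction. The background for that count is 2.97% of the 236 brighter features, meaning those at or above the median of the 472 measured on both arrays, with mean intensities from 4.44 units up. A count of 0 in 8 is close to that share. All 8 lay within 1.3-fold, as did 88.6% of the brighter features. Their SD across features was 0.11 on the log2 scale, against 0.24 over the brighter features, 0.18 over the 53 other features above 100 units and 0.04 over the other 5 of the 13 brightest. A narrow spread is thus not particular to the 8.

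The direction was less even. As deposited, 7 of the 8 were lower in NOX1-deficient cells and the median was -0.11, while of the brighter features 48.3% were lower, with a median of 0.01. Among the 53 other features above 100 units, 21 were lower and the median was 0.04. The other 5 of the 13 brightest, also chosen by brightness, were MIMAT0000247, MIMAT0000136, MIMAT0000531, MIMAT0000219 and MIMAT0000521. All 5 were higher in NOX1-deficient cells, by 0.05 to 0.14 on the log2 scale, with a median of 0.10. How many of the 8 were lower depends on the scaling, as given below, and with 1 array per genotype, genotype and hybridisation cannot be told apart.

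**Figure D3:**
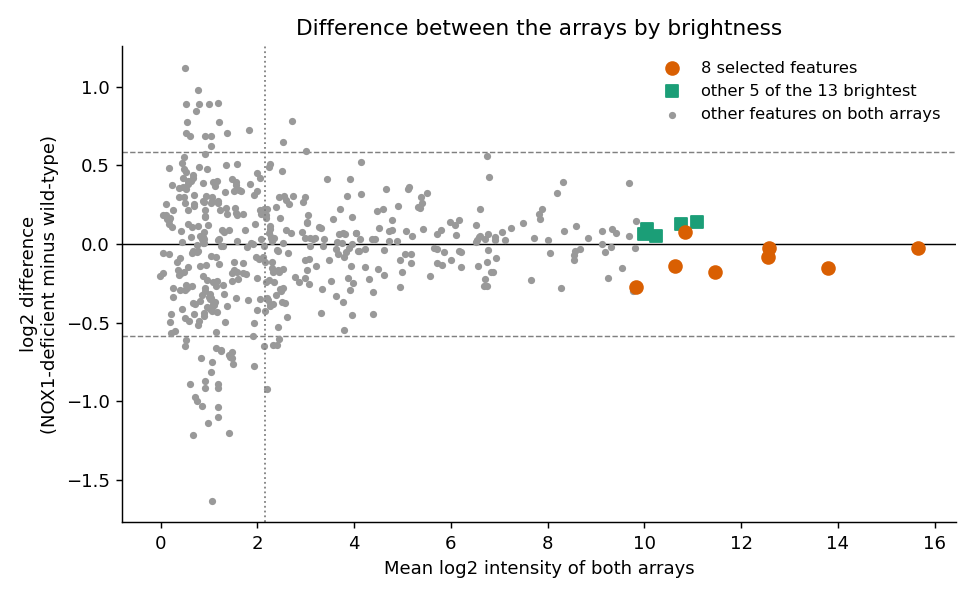
Log2 difference, NOX1-deficient minus wild-type as deposited, against mean log2 intensity for the 472 features on both arrays. The dashed lines mark 1.5-fold and the dotted line the start of the brighter features; the 8 selected features (orange circles) lie between -0.27 and 0.07 and the other 5 of the 13 brightest (green squares) between 0.05 and 0.14.

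Features with neighbouring accession numbers were also listed. The 17 features numbered from 11000 to below 12000 include 4 of the 8. The remaining 13 held 3.69% of the summed intensity in NOX1-deficient cells and 3.92% in wild-type cells. Of these 13, 10 were among the brighter features, and 7 of the 10 were lower in NOX1-deficient cells. The median was -0.06, with a range of -0.30 to 0.10. Of the features numbered from 9000 to below 10000 other than the selected ones, 13 were among the brighter features. In these, 8 of 13 were lower, with a median of -0.05 and a range of -0.34 to 0.22. With the medians of the arrays set equal, these counts became 4 of 10 and 4 of 13, and the medians 0.04 and 0.05. Over all brighter features, 48.3% were lower as deposited and 33.9% with the medians set equal, with medians of 0.01 and 0.11. That setting moves every difference by the same amount, so the turn is not particular to these neighbours.

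The 8 features bear on any scaling that sets the summed intensities of the arrays equal. The ratio of the sums, NOX1-deficient over wild-type, was 0.978 with all features, and 1.03 without the 8. The direction of the correction therefore turned. In units, the sum over all features differed by -2568, that over the 8 by -3319 and that over the other 731 by 751. MIMAT0011221 contributed -1485 units, MIMAT0011218 -811 units, MIMAT0009401 -345 units and MIMAT0003469 -343 units. The share of a feature in the sum did not set its contribution to the difference, since MIMAT0011221 gave more than the brightest feature.

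No single one of the 8 turned the ratio. Leaving out 1 at a time gave ratios of 0.972 to 0.989, the lowest without MIMAT0011218 and the highest without MIMAT0011221. Leaving out the brightest features in order of rank gave 0.972 without 1, 0.994 without 2, 0.996 without 3 and 1.005 without 4. From 4 to 25 features left out, the ratio stayed between 1.002 and 1.018. Without the whole 13 brightest it was 1.011. The value of 1.03 is above all of these. It leaves out all 8 and keeps the 5 bright features that were higher in NOX1-deficient cells. The sums of those 5 had a ratio of 1.08.

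**Figure D4:**
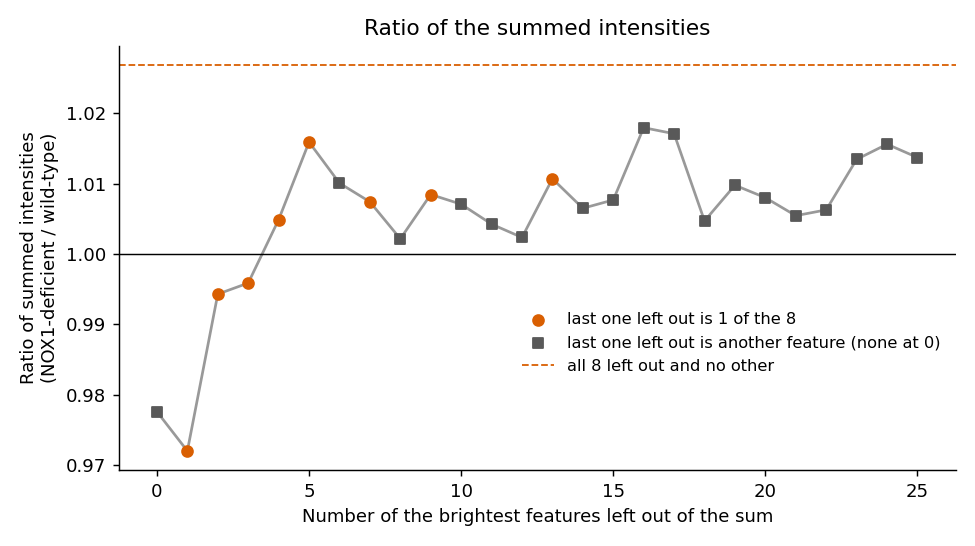
Ratio of the summed intensities, NOX1-deficient over wild-type, against the number of the brightest features left out of the sum, from 0 to 25. The ratio is 0.978 with none left out, passes 1 once 4 are left out, and stays below the dashed line, the 1.03 found with the 8 selected features and no other left out.

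For the other features, moving from the sum of all features to the sum without the 8 lowers every log2 difference by 0.07. Among the 228 other brighter features, this turned the sign of 29. With the sum of all features, 43.6% of the 236 brighter features were lower in NOX1-deficient cells, and with the sum without the 8, 56.8% were. As deposited it was 48.3%, so the 2 choices fall on either side of the deposited values. The number of brighter features past 1.5-fold was 7 under both choices, 4 higher and 3 lower with all features, and 2 higher and 5 lower without the 8. As deposited, 3 were higher and 4 lower, and with the array medians set equal, 7 were higher and 1 lower. The last setting subtracts a log2 ratio of -0.10 from every difference.

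Every feature other than the 8 necessarily took a larger share of what was left. MIMAT0000247, the brightest feature that is not 1 of the 8, held 2.04% of the full sum in NOX1-deficient cells and 1.81% in wild-type cells. Of the sum without the 8 it held 7.97% in NOX1-deficient cells and 7.43% in wild-type cells.

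Scalings that do not use the sum also moved when the 8 were left out, and the ratio at the 75th percentile moved further than that of the sums. The ratio of the array medians over the 472 features on both arrays was 0.935, from 4.26 units in NOX1-deficient cells and 4.56 units in wild-type cells. Over the 464 other features it was 0.978, from 4.21 and 4.30 units in the same order. At the 75th percentile the ratio was 0.935 with the 8 and 1.0001 without them, when it was 17.14 units on both arrays. All 8 lie above both points on both arrays. Leaving out any 8 features that do so would give the same ratios, so these moves do not reflect the intensities of the 8. A loess curve fitted to the differences along brightness moved the other 228 brighter features by at most 0.05 when fitted without the 8, with 3 signs turned. Quantile normalization moved them by at most 0.13. Here 4 features moved to or from exactly 0, and none turned from one direction to the other. With all features 106 were above 0 and 95 below, and without the 8, 103 were above and 96 below.

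The direction of the 8 followed the scaling. Of the 8, 5 were lower in NOX1-deficient cells with the sum of all features, 7 with the sum without the 8, and 4 with the array medians or the 75th percentile set equal. The shares of the brighter features that were lower are 43.6%, 56.8%, 33.9% and 33.9% in the same order. After a loess curve 6 were lower when it was fitted on all features and 7 when fitted without the 8, with 47.5% and 49.2% of the brighter features lower. The last setting held the curve at its end for the brightest members, which lie beyond the features it was fitted on. MIMAT0011221, MIMAT0003469, MIMAT0011216 and MIMAT0011222 were below 0 under each of these, and MIMAT0003484 was above 0. Quantile normalization put 4 of the 8 at exactly 0, since they have the same rank on both arrays, and left MIMAT0011216 at -0.13 and MIMAT0011222 at -0.32. The other 5 of the 13 brightest were above 0 under every setting in which they were not held at equal rank.

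**Figure D5:**
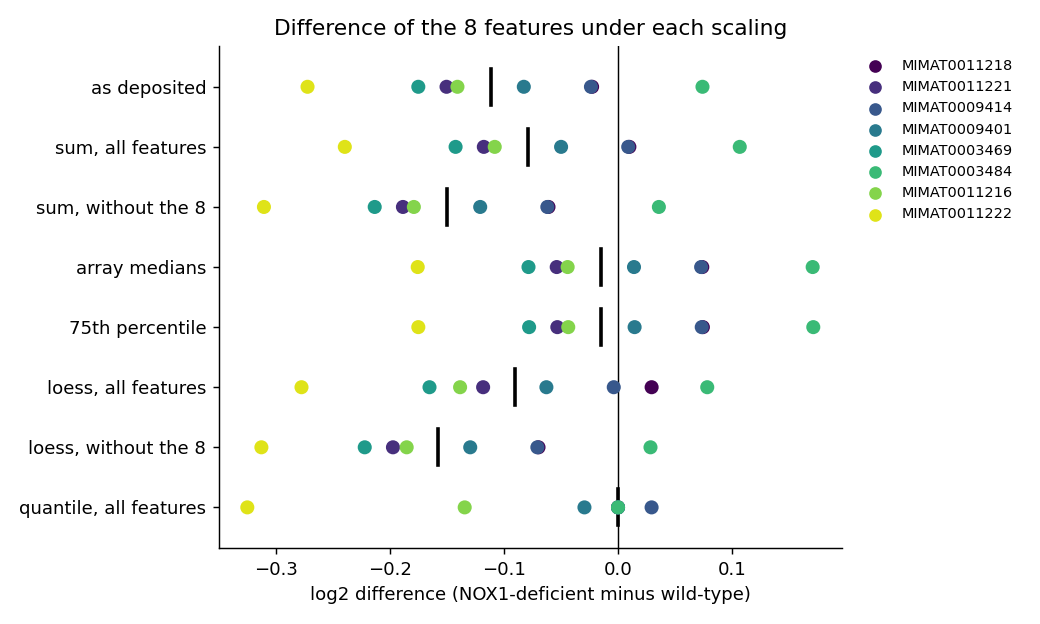
Log2 difference, NOX1-deficient minus wild-type, of each of the 8 features under 8 scalings, with a black bar at their median. MIMAT0011218 and MIMAT0009414 nearly coincide in most lines; the medians run from -0.16 (loess without the 8) to 0 (quantile normalization), and MIMAT0011222 is lowest in every line.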

How the data were processed

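Per the labels' protocols, RNA came from a miRNeasy column preparation and carried the dye Hy5 from a miRCURY labelling kit. The deposited table holds 1 linear intensity per feature and array for 739 features, of which the authors list 214 as null on the NOX1-deficient array and 193 on the wild-type array. The sources used here do not say how background was corrected, how arrays were normalized or how many spots each feature had. The error of a single intensity is therefore unknown, and the number of arrays limits the precision. The members and lists were chosen with earlier results of these data known. Named features are the 8, the other features among the 13 brightest, and the 3 that rank next. Log2 differences used features with a value on both arrays. Cell type markers fixed by name could not be looked up. Scalings were summed intensity, medians, quantile normalization and loess (span 0.4), with and without the 8. The following were added after seeing the data: the 75th percentile, the ratio of the array medians as a scale factor with and without the 8, leaving out features by rank or each of the other 7 alone, and quantile normalization without the 8. Simulated data were used to test only the centring on the median difference of the other features and the ratios of sums with and without the 8. The other scalings were not tested in this way. Python 3.11.15, numpy 2.4.6, pandas 2.3.3, statsmodels 0.14.6 and matplotlib 3.10.9 were used.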

Additional observations from a re-analysis of the deposited data

How the results depend on the processing

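The share of the 8 in the summed intensity, 74.4% in NOX1-deficient and 75.6% in wild-type cells, became 52.9% and 55.5% without the brightest feature. It was 74.7% and 75.9% with each array's lowest listed value subtracted, and 74.4% and 75.7% over features on both arrays. The median log2 difference of the 8, -0.11, was -0.079 with the sum of all features, -0.15 with the sum without the 8, and -0.0151 with array medians. It was -0.12 after centring on the median difference of the other features, -0.0145 with the 75th percentile (added after seeing the data), 0 after quantile normalization, and -0.0905 and -0.16 after loess with and without the 8. MIMAT0011218 turned to 0.00994 with the sum of all features, 0.0739 with array medians, 0.0744 with the 75th percentile and 0.0295 after loess on all features. MIMAT0009414 turned to 0.00894, 0.0729 and 0.0734 under the first 3 of these and to 0.0294 after quantile normalization. MIMAT0009401 turned to 0.0140 with array medians and 0.0145 with the 75th percentile. The ratio of the sums, 0.978, was 1.03 without the 8 and 0.972 without the brightest feature. Array medians gave 0.935, and the 75th percentile gave 0.935 with the 8 and 1.0001 without. The count of 7 brighter features past 1.5-fold was 6 to 8 under the scalings, 53 without the brightness filter and 0 with log2(intensity + 50), which shrinks ratios. The cause of the other changes was not tested. No paired analysis was possible because there is a single array of each genotype, and leaving out a replicate could not be done either. No background signal was used here, so its limit on the dim features is unknown.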
